A study of Mus musculus with 8 samples.

Results

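The region by preparation interaction asks whether the difference between hindbrain and telencephalic choroid plexus is the same in sorted epithelial cells as in whole tissue. All 8 of the 8 RNA-seq libraries of the series enter it, because the rule takes the hindbrain minus telencephalic difference of the sorted libraries and subtracts from it the same difference of the whole-tissue libraries, on the log2 scale. Each of the 4 groups held 2 libraries from mouse embryos at stage E18.5. The whole tissue came from mice labelled CD1 and consisted of telencephalic (lateral ventricle) or hindbrain choroid plexus (the plexus of the fourth ventricle) with its stroma and vessels. The sorted cells came from mice labelled ICR (CD1), carried the Ttr::RFP reporter, a red fluorescent protein tied to the transthyretin gene, and were purified as red cells by fluorescence-activated sorting from the telencephalic or the hindbrain choroid plexus. The design text states that both regions were taken from the same brains. Each preparation therefore gives 2 within-brain regional differences, while sorted cells and whole tissue come from different brains, and preparation cannot be told apart from reporter, strain label and brain.

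The choroid plexus makes cerebrospinal fluid. A single layer of epithelial cells, joined by tight junctions and carrying ion pumps, water channels and secreted carriers such as transthyretin, covers a stroma of fibroblasts, macrophages and fenestrated capillaries wrapped in mural cells (pericytes and smooth muscle). The epithelium of each ventricle keeps the regional identity of the neural tube from which it grew, and the hindbrain plexus is known for its Sonic hedgehog signal. A gene used by only 1 of these cell types can show a regional difference in whole tissue that differs from the one in a sorted fraction.

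Total counts per library ran from 8849053 to 31613434. Ttr took between 15.8% and 23.6% of the counts of a library, and all 20 choroid epithelial markers were detected in all groups. The ribosomal precursor Rn45s took 4.07% to 4.40% of counts in whole tissue, 13.9% and 11.6% in the telencephalic sorted libraries and 6.49% and 11.3% in the hindbrain sorted ones. The hindbrain sorted pair was the least alike: its chi-square per degree of freedom was 61.1, against 5.16 to 15.8 in the other groups. That measure grows with depth and weighs abundant genes most. By Spearman correlation the pair stood at 0.984, against 0.9905 to 0.993. Its median absolute log2 difference was 0.27, against 0.17 to 0.19. Expression is given below as CPM, counts scaled to the size of each library and computed here, in the order library 1 and library 2 of each group. Where nothing says how many embryos made up a library, the p-values measure the spread between these libraries.

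Of 15698 genes tested, 211 differed in their regional difference between the preparations at a Benjamini-Hochberg adjusted p under 0.05 in edgeR's quasi-likelihood test, which is 1.34% of all genes tested. The value was higher for 173 genes (1.1%) and lower for 38 (0.242%). Higher means that the hindbrain minus telencephalic difference lay further towards the hindbrain in sorted cells than in whole tissue. It means equally that the sorted minus whole difference lay higher in the hindbrain than in the telencephalon, because both readings are the same number. At an unadjusted p under 0.05 there were 1481 genes. The interaction of all tested genes had a median of 0.0038 on the log2 scale, with 5% of genes below -0.94 and 5% above 1.29, and a median standard error of 0.28.

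The number of calls depended on the fit. With each brain as a block, 337 genes were called, 277 higher and 60 lower, and all 211 were among them. Leaving out 1 library left 81 calls without telencephalic whole library 1, 58 without telencephalic whole library 2, 124 without hindbrain whole library 1, 133 without hindbrain whole library 2 and 98 without telencephalic sorted library 1. It left 473 calls without hindbrain sorted library 2. No gene among the 211 changed sign in any of these fits. In a single gene, an exact two-sided permutation test of 2 brains against 2 cannot go below p = 0.333, so the calls rest on the spread shared across genes. The brain-level differences of sorted cells and whole tissue did not overlap in any of the 211 genes, which also held for 41.7% of all genes tested.

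Each regional comparison had calls of its own. Between regions, 909 genes (5.79%) were called in whole tissue and 2383 (15.2%) in sorted cells. The 909 fell to between 316 and 561 when 1 of the 4 whole-tissue libraries was left out, in the order 316 and 380 without telencephalic libraries 1 and 2 and 561 and 476 without hindbrain libraries 1 and 2. The 2383 fell to 1051 and 1545 without telencephalic sorted library 1 and 2. Between preparations, 3517 genes (22.4%) were called in the telencephalon and 3472 (22.1%) in the hindbrain. The former came to 1519 and 1652 without telencephalic whole library 1 and 2 and to 1747 and 2181 without telencephalic sorted library 1 and 2, and the latter to 1988 and 1691 without hindbrain whole library 1 and 2. The regional differences of the preparations, which share no library, had a Pearson correlation of 0.508 and a Spearman correlation of 0.486 across the 15698 genes, as a description over genes that share libraries. Of 684 genes called in both, 677 had the same sign and 7 the opposite sign.

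**Figure D1:**
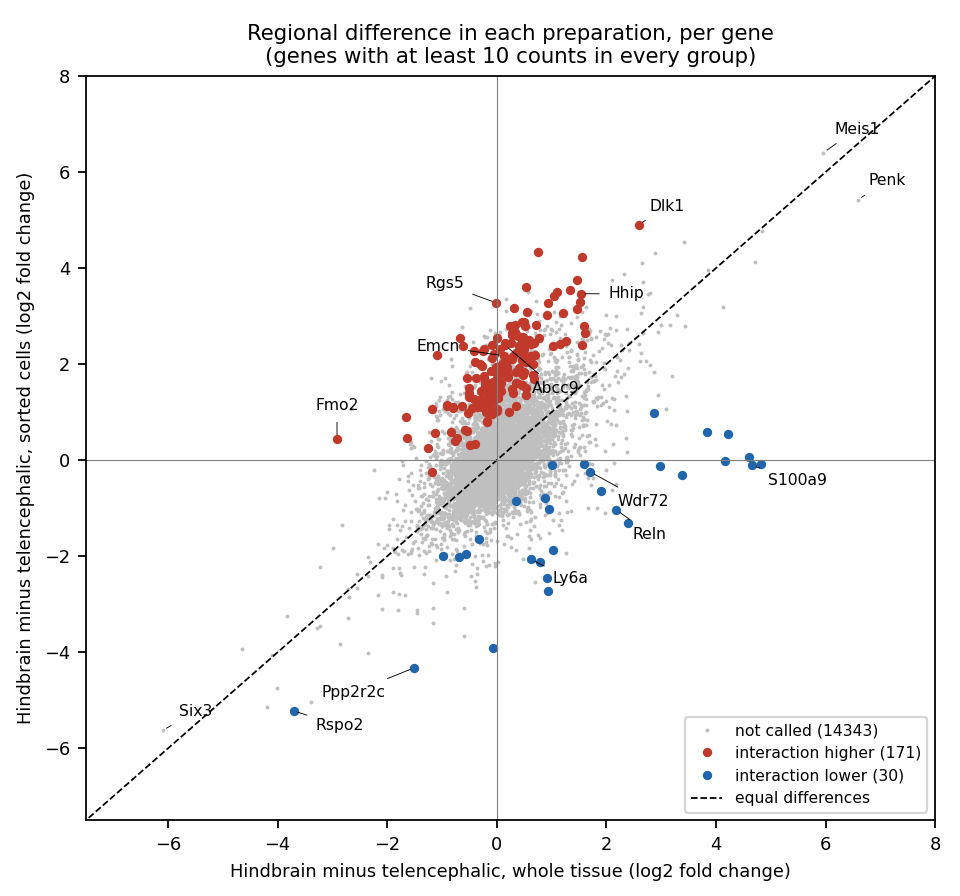
Each point is a gene with at least 10 counts in every group, with the hindbrain minus telencephalic log2 fold change of whole tissue on the x axis and of sorted cells on the y axis, and the dashed line marks equal differences. The 171 genes plotted as higher (red) lie mostly above a whole-tissue difference near 0, while the 30 plotted as lower (blue) lie below the line, among them neutrophil genes such as S100a9 at the right.

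The higher and lower genes had different shapes. Of the 173 higher genes, 166 had their lowest group mean in telencephalic sorted cells, where 28.7% of all tested genes had theirs. Their highest mean lay in hindbrain whole tissue for 72, in telencephalic whole tissue for 58 and in hindbrain sorted cells for 43. Their median regional difference was 0.066 in whole tissue and 1.87 in sorted cells, and their median sorted minus whole difference was -1.99 in the telencephalon and -0.28 in the hindbrain. The typical higher gene was therefore about level between the regions in whole tissue and had a larger drop in level after sorting in the telencephalon than in the hindbrain. Of the 38 lower genes, 24 had their highest mean in hindbrain whole tissue and 13 in telencephalic sorted cells, and 8 had a group with under 10 counts.

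Genes of mural cells, which wrap capillaries and arterioles, made up the list with the largest share of higher calls: 5 of 12 tested members were called higher and none lower, beside 1.1% and 0.242% of all genes. The list's median interaction was 1.67. Of the 12, 10 had an interaction above 0, where 50.6% of all tested genes did, and the lowest value was -1.11. Rgs5, a regulator of G protein signalling used as a pericyte marker, measured 91.4 and 100.1 CPM in telencephalic whole tissue, 83.4 and 107 in hindbrain whole tissue, 2.12 and 2.73 in telencephalic sorted cells and 17.3 and 28.8 in hindbrain sorted cells. The whole-tissue groups overlapped, and the sorted groups did not. Its interaction was 3.28 ± 0.34 (SE, adjusted p = 0.00101). Abcc9, the regulatory subunit of a vascular ATP-sensitive potassium channel, measured 122 and 132 CPM in telencephalic and 123 and 158 in hindbrain whole tissue. In sorted cells it measured 20.9 and 18.9 against 116.7 and 93.5 CPM. Its interaction was 2.25 ± 0.21 (adjusted p = 0.000815), so the regional difference seen after sorting had no counterpart in whole tissue, where the regional fold change was 0.15 (adjusted p = 0.716). Kcnj8, the pore subunit of the same channel, had an interaction of 3.07 ± 0.45 (adjusted p = 0.00492), with 0.416 and 1.18 CPM in telencephalic against 9.28 and 8.44 CPM in hindbrain sorted cells.

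Pdgfrb, the receptor through which endothelial cells recruit mural cells, measured 91.5 and 97.4 CPM in telencephalic and 85.8 and 90.1 CPM in hindbrain whole tissue. In sorted cells it measured 30.5 and 25.7 against 113 and 91.9 CPM. The hindbrain sorted libraries thus held Pdgfrb at or above its whole-tissue level, and the interaction was 1.97 ± 0.19 (adjusted p = 0.000815). The calls of Rgs5, Abcc9, Kcnj8 and Pdgfrb were kept in each of the alternative fits, each left-out library included. Cspg4, the NG2 proteoglycan of pericytes, had an interaction of 1.38 ± 0.26 (adjusted p = 0.0199). Its call was lost without either telencephalic whole library (adjusted p = 0.149 and 0.108), without either hindbrain whole library (0.0992 and 0.0866) and without telencephalic sorted library 1 (0.114). The summed level of the 13 mural markers was 440 and 465 CPM in telencephalic whole tissue, 428 and 514 in hindbrain whole tissue, 94.5 and 85.1 in telencephalic sorted cells and 332 and 294 in hindbrain sorted cells. Sorted cells therefore kept 19.9% of the whole-tissue sum in the telencephalon and 66.5% in the hindbrain. In bulk libraries, fewer cells of a type and less RNA per cell cannot be told apart.

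**Figure D2:**
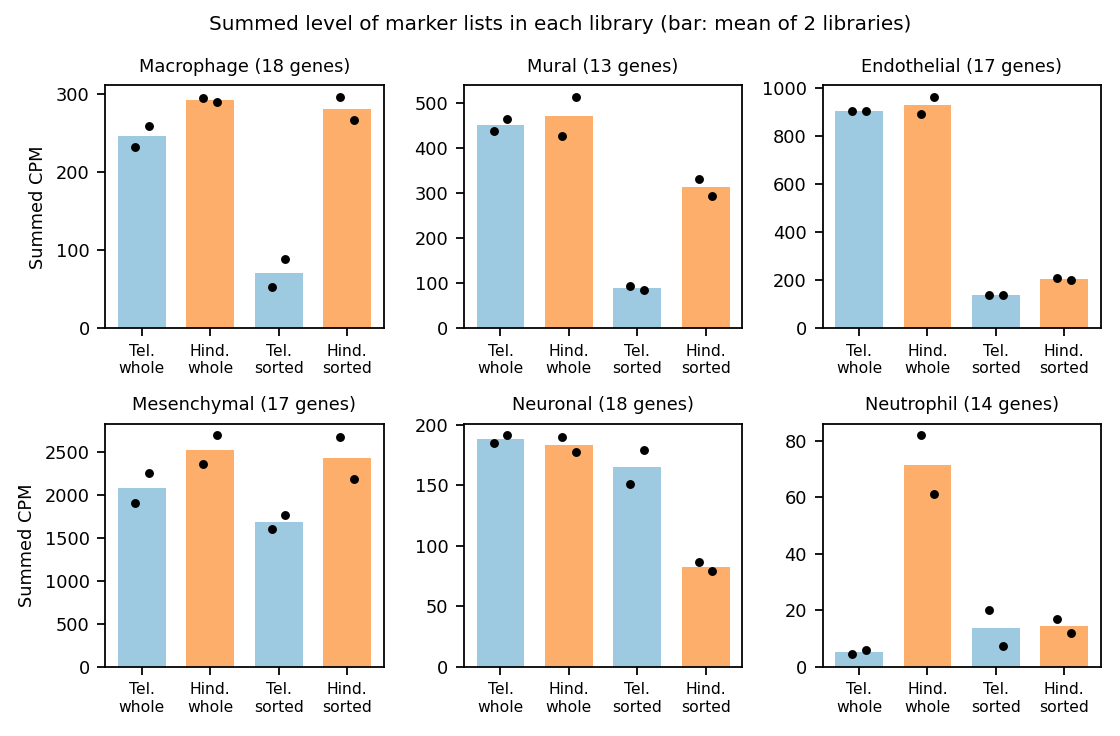
Summed CPM of 6 marker lists in each library (points) with the mean of the 2 libraries of a group (bars), for telencephalic and hindbrain whole tissue and sorted cells. Mural and macrophage sums in telencephalic sorted cells lie below those of the other groups, the endothelial sum is low in both sorted groups, and the neutrophil sum is high in hindbrain whole tissue alone.

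Macrophage genes lay on the same side of 0 throughout. All 18 tested members had an interaction above 0, where 50.6% of all tested genes did, with a median of 1.83 and a range of 0.53 to 2.31. Of these, 6 were called higher, beside 1.1% of all genes. C1qb, a chain of the complement component that tissue macrophages make, measured 15.7 and 17.2 CPM in telencephalic and 21.8 and 21.8 CPM in hindbrain whole tissue. In sorted cells it measured 3.10 and 2.85 against 15.02 and 16.1 CPM. Only the telencephalic sorted libraries were low. The interaction of C1qb was 1.97 ± 0.24 (adjusted p = 0.00216), and that of C1qc, which encodes another chain of the same component, was 2.29 ± 0.31 (adjusted p = 0.00324). Both were kept in all alternative fits.

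Laptm5, a lysosomal membrane protein of blood-derived cells, had an interaction of 1.81 ± 0.30 (adjusted p = 0.00888). Its call was lost without telencephalic whole library 1 or 2 (adjusted p = 0.0724 and 0.0571) and without telencephalic sorted library 1 (0.0718). Lyve1, a hyaluronan receptor of border macrophages and lymphatic vessels, was called at 2.05 ± 0.41 (adjusted p = 0.0295), with 17.9 and 17.7 CPM in telencephalic whole tissue, 9.23 and 9.68 in hindbrain whole tissue, 2.16 and 4.71 in telencephalic and 6.33 and 8.29 in hindbrain sorted cells. The regional order of the Lyve1 libraries was opposite in the 2 preparations, with an adjusted p between regions of 0.088 in whole tissue and 0.0242 in sorted cells. F13a1, a coagulation factor subunit of tissue macrophages, was called at 2.21 ± 0.46 (adjusted p = 0.037), and Fcer1g, a signalling chain of Fc receptors, at 1.77 ± 0.37 (adjusted p = 0.0345). The calls of Lyve1, F13a1 and Fcer1g were each lost without 5 of the 8 libraries. The adjusted p then lay between 0.0781 and 0.157 for Lyve1 (telencephalic whole 1 and 2, hindbrain whole 1 and 2, telencephalic sorted 1). It lay between 0.0598 and 0.191 for F13a1 (telencephalic whole 1 and 2, hindbrain whole 1 and 2, hindbrain sorted 1), and between 0.0735 and 0.201 for Fcer1g (telencephalic whole 2, hindbrain whole 1 and 2, telencephalic sorted 1 and 2). Csf1r, the growth factor receptor on which macrophages depend, missed the threshold at 1.05 ± 0.23 (adjusted p = 0.0526) and passed it in 8 alternative fits, among them the one with the brain block (adjusted p = 0.0237). Mrc1, the mannose receptor, had a value of 2.12 ± 0.56 (adjusted p = 0.118), with telencephalic sorted libraries at 5.71 and 21.1 CPM that differed widely, and it was called with no filter on low counts (adjusted p = 2.63e-05), without telencephalic sorted library 2 (3.30, adjusted p = 0.00426) and without hindbrain sorted library 2 (2.44, adjusted p = 0.03).

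The 18 macrophage markers summed to 233 and 259 CPM in telencephalic and 295 and 291 CPM in hindbrain whole tissue. In sorted cells they summed to 53.0 and 89.0 CPM in the telencephalon against 296 and 266 CPM in the hindbrain. The hindbrain sorted libraries therefore held 96.2% of the whole-tissue level, and the telencephalic ones 28.9%. None of the markers was at 0 in either sorted group.

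The stretch of 250 bases before the start of C1qb (RefSeq, GRCm38.p6, chr4:136886201-136886450, minus strand) is shown because promoters of myeloid genes often carry motifs bound by ETS-family factors. The capitals mark the only match, on the reverse strand, to CAGGAAGT, searched on both strands, whose first base lies 53 bases before the start. The same motif occurs in 3.33% of the 32851 promoter windows of the reference table, which run from 250 bases before to 50 after a start. Of 10945 tested genes with a window, 4.13% held it in at least 1 of their windows. Promoters could be matched by symbol for 118 of the 173 higher genes, too few for a share over them to be given. The match is a description of these letters and not evidence of binding.
C1qb: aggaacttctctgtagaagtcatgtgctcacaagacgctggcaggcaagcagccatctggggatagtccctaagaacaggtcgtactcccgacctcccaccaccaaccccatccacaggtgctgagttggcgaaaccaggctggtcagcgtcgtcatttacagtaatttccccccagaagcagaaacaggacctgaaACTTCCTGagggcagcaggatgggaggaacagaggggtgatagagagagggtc

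Endothelial genes, from the cells that line vessels, gave 4 calls higher among 17 tested, beside 1.1% of all genes. Of the 17, 12 had an interaction above 0, where 50.6% of all tested genes did, and the lowest value was -0.94. The list's median was 0.88, and 1.46 without hindbrain sorted library 1. Emcn, an endothelial surface sialoglycoprotein, measured 71.2 and 78.5 CPM in telencephalic whole tissue, 77.2 and 86.4 in hindbrain whole tissue, 7.75 and 6.57 in telencephalic sorted cells and 34.2 and 31.1 in hindbrain sorted cells. All sorted libraries were below all whole-tissue libraries, and the sorted groups did not overlap. Its interaction was 2.05 ± 0.20 (adjusted p = 0.000815). Cdh5, the cadherin of endothelial junctions, had an interaction of 1.61 ± 0.18 (adjusted p = 0.00179), with 9.91 and 8.62 CPM in telencephalic against 42.9 and 36.4 CPM in hindbrain sorted cells. Eng, a TGF-beta co-receptor of vessels, was called at 1.73 ± 0.26 (adjusted p = 0.0053). Emcn, Cdh5 and Eng were kept in all alternative fits. Robo4, a guidance receptor of endothelium, was called at 2.26 ± 0.43 (adjusted p = 0.0215). Its call was lost without telencephalic whole library 1 or 2 (adjusted p = 0.0856 and 0.106), hindbrain whole library 1 (0.0594) or telencephalic sorted library 1 (0.261). Pecam1, a widely used endothelial marker, measured 0.454 and 1.12 CPM in telencephalic and 1.64 and 1.95 CPM in hindbrain sorted cells. Its value of 1.33 ± 0.36 did not pass (adjusted p = 0.14). It passed with DESeq2 (1.34, adjusted p = 0.0244), with no filter on low counts (1.32, adjusted p = 0.025) and without telencephalic sorted library 2 (1.98, adjusted p = 0.0303).

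In summed level, the endothelial list was low in both sorted groups, unlike the macrophage and mural lists. Its 17 markers summed to 903 and 905 CPM in telencephalic and 891 and 961 CPM in hindbrain whole tissue, and to 136 and 140 CPM against 211 and 200 CPM in sorted cells, which is 15.3% and 22.2% of the whole-tissue level. Sox17 was at 0 in both telencephalic sorted libraries.

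Mesenchymal genes, from the stromal fibroblasts, gave 4 calls higher among 16 tested, beside 1.1% of all genes, with a list median of 0.66. Col6a1, a chain of the microfibrillar collagen VI, measured 27.3 and 23.5 CPM in telencephalic and 39.96 and 31.4 CPM in hindbrain whole tissue, and 5.63 and 5.15 against 33.4 and 24.9 CPM in sorted cells. Its level in hindbrain sorted cells lay within that of whole tissue, and its interaction was 1.94 ± 0.27 (adjusted p = 0.00366), kept in all alternative fits. Col6a2, its partner chain, was called at 1.49 ± 0.26 (adjusted p = 0.014), Col3a1, a fibrillar collagen, at 1.47 ± 0.28 (adjusted p = 0.0199), and Mgp, an inhibitor of calcification, at 1.19 ± 0.25 (adjusted p = 0.0416). These calls did not hold without several libraries. Col6a2 reached an adjusted p of 0.0535 to 0.105 without telencephalic whole library 1 or 2, hindbrain whole library 1 or telencephalic sorted library 1 or 2. Col3a1 reached 0.0609 to 0.14 without telencephalic whole library 2, hindbrain whole library 1 or telencephalic sorted library 1 or 2. Mgp reached 0.0526 to 0.222 without telencephalic whole library 1 or 2, hindbrain whole library 2, telencephalic sorted library 1 or 2 or hindbrain sorted library 1. The list's members did not move as one: Pdgfra, a platelet-derived growth factor receptor used as a fibroblast marker, measured 389 and 411 CPM in telencephalic whole tissue and 379 and 408 in telencephalic sorted cells, with an interaction of 0.14 ± 0.15 (adjusted p = 0.87). The summed level of the 17 markers in the sorted groups was 81.0% of that in whole tissue for the telencephalon and 96.3% for the hindbrain. Abundant members weigh most in this sum. The median sorted minus whole difference of the 16 tested was -1.19 in the telencephalon (11 called lower and 0 higher). It was -0.34 in the hindbrain (4 lower and 2 higher).

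Other large interactions in the higher direction lay outside the lists. Sparcl1, a secreted matricellular protein, measured 209 and 194 CPM in telencephalic and 220 and 279 CPM in hindbrain whole tissue. It measured 2.12 and 1.55 against 21.2 and 12.7 CPM in sorted cells, with an interaction of 2.86 ± 0.34 (adjusted p = 0.00179). The sorted libraries kept little of this transcript in either region, and less in the telencephalon. Hmcn1, a large extracellular matrix protein, measured 34.9 and 33.8 CPM in telencephalic and 26.7 and 25.3 in hindbrain whole tissue, and 5.94 and 7.75 against 29.8 and 26.5 CPM in sorted cells. The order of the regional libraries of Hmcn1 was opposite in the 2 preparations, and its interaction was 2.46 ± 0.23 (adjusted p = 0.000815). Lgals9, a galectin, was called at 2.48 ± 0.30 (adjusted p = 0.00216). These 3 calls were kept in all alternative fits. Slco2b1, an organic anion transporter, was called at 2.54 ± 0.40 (adjusted p = 0.00743) and lost without telencephalic whole library 1 (adjusted p = 0.0629) or telencephalic sorted library 1 (0.0506).

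The 7 genes with opposite calls in the preparations are the clearest crossings. Svep1, a large adhesion protein, measured 19.3 and 25.6 CPM in telencephalic against 9.23 and 10.3 CPM in hindbrain whole tissue, and 11.6 and 9.37 against 22.3 and 21.7 CPM in sorted cells. It was thus lower in the hindbrain in whole tissue (log2 fold change -1.19, adjusted p = 0.0022) and higher there in sorted cells (1.06, adjusted p = 0.00206), with an interaction of 2.25 ± 0.27 (adjusted p = 0.00179). Ccdc80, a matrix-binding protein, and Rgs4, a regulator of G protein signalling, crossed in the same way, with interactions of 1.91 ± 0.22 (adjusted p = 0.00179) and 2.07 ± 0.29 (adjusted p = 0.00366). Errfi1, a feedback inhibitor of the EGF receptor, did so as well, with 65.7 and 70.3 against 36.6 and 39.4 CPM in whole tissue and 30.9 and 33.9 against 44.2 and 52.9 CPM in sorted cells (1.42 ± 0.19, adjusted p = 0.00266). Trf, the iron carrier transferrin, was called at 1.20 ± 0.21 (adjusted p = 0.0116). Its call was lost without telencephalic whole library 1 or 2, hindbrain whole library 1 or telencephalic sorted library 2, at adjusted p of 0.0503 to 0.0973.

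Reln and Slc6a13 crossed the other way. Reln, a secreted glycoprotein that guides neuronal migration, measured 5.32 and 8.07 CPM in telencephalic against 35.9 and 23.8 CPM in hindbrain whole tissue, and 4.35 and 3.53 against 1.53 and 2.35 CPM in sorted cells. The hindbrain excess of Reln in whole tissue was thus not found after sorting, where the telencephalon was higher, and the interaction was -3.22 ± 0.42 (adjusted p = 0.00241). Slc6a13, a GABA and taurine transporter of the meninges, measured 15.5 and 16.98 against 29.8 and 29.5 CPM in whole tissue and 9.53 and 12.2 against 5.13 and 7.30 CPM in sorted cells. Its interaction was -1.67 ± 0.28 (adjusted p = 0.0105), lost without telencephalic whole library 1 or 2 (adjusted p = 0.0945 and 0.0731) or telencephalic sorted library 2 (0.0525). The calls of Svep1, Ccdc80, Rgs4, Errfi1 and Reln were kept in all alternative fits.

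A regional difference in whole tissue that was not called after sorting was seen in Fmo2 and Igfbp3. Fmo2, a flavin-containing monooxygenase, measured 32.5 and 36.5 CPM in telencephalic whole tissue against 4.31 and 4.82 CPM in the hindbrain. In sorted cells it measured 2.53 and 3.04 against 5.42 and 2.06 CPM, which overlap. The telencephalic whole libraries alone were high, and the interaction was 3.35 ± 0.48 (adjusted p = 0.00438), kept in all alternative fits. Igfbp3, an insulin-like growth factor binding protein, measured 117 and 107 against 34.5 and 36.9 CPM in whole tissue and 1.13 and 1.12 against 1.16 and 3.05 CPM in sorted cells. Its call (2.55 ± 0.43, adjusted p = 0.0103) was lost without either telencephalic whole library (adjusted p = 0.0659 and 0.0605) and without either telencephalic sorted library (0.0907 and 0.0533).

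**Figure D3:**
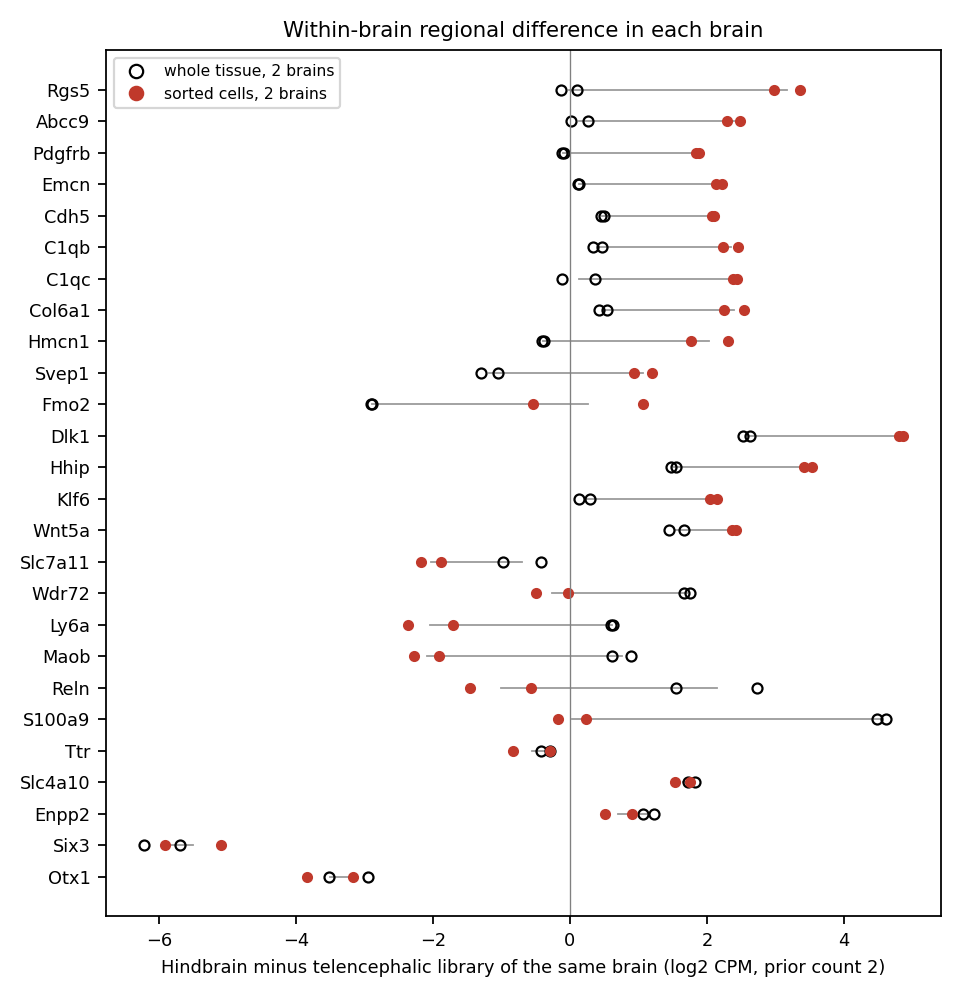
Hindbrain minus telencephalic difference within each brain, in log2 CPM, for 26 genes, with open circles for the 2 whole-tissue brains and filled circles for the 2 sorted brains, and a line joining the means of the preparations. Rgs5, Abcc9, Pdgfrb and Emcn sit near 0 in whole tissue and near 2 or above in sorted cells, Ly6a and Maob lie below 0 only in sorted cells, and the epithelial genes Ttr, Slc4a10 and Enpp2 and the regional regulators Six3 and Otx1 lie close together in both preparations.

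Among signalling pathways, Sonic hedgehog acts through the receptor Ptch1 and the transcription factors Gli1 to Gli3, and Hhip, a membrane protein induced by the pathway, binds and sequesters the ligand. Of 15 pathway genes tested, Hhip alone was called, beside 1.34% of all genes. It measured 10.4 and 13.2 CPM in telencephalic and 29.0 and 38.7 CPM in hindbrain whole tissue, and 5.07 and 3.47 against 55.1 and 41.4 CPM in sorted cells. Hhip was higher in the hindbrain in both preparations, and by more in sorted cells (log2 fold change 3.47) than in whole tissue (1.53), with an interaction of 1.94 ± 0.32 (adjusted p = 0.0093). The call was lost without telencephalic whole library 2 (1.77, adjusted p = 0.0792) and in limma-voom (1.91, adjusted p = 0.0522).

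Shh itself, the ligand, had under 10 counts in a telencephalic group and measured 12.1 and 16.9 CPM in hindbrain whole tissue and 8.69 and 8.22 CPM in hindbrain sorted cells (interaction adjusted p = 0.971). Gli1, the transcription factor most directly induced by the pathway, measured 0.489 and 0.943 CPM in telencephalic whole tissue and 0.0378 and 0.434 in telencephalic sorted cells, against 4.68 and 4.34 CPM in hindbrain whole tissue and 6.73 and 5.94 in hindbrain sorted cells (adjusted p = 0.406). Ptch1, the receptor, measured 88.8 and 87.1 against 132 and 121 CPM in whole tissue and 102 and 105 against 137 and 136 CPM in sorted cells. Its regional difference was alike in size in both, with an interaction of -0.13 ± 0.15 and a 95% interval of -0.45 to 0.20.

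The 250 bases before the start of Hhip (RefSeq, GRCm38.p6, chr8:80058009-80058258, minus strand) are shown as the promoter of the single called Hedgehog gene. The capitals mark a match to TGACGTCA, the cyclic AMP response element, which reads the same on both strands and begins 75 bases before the start. It occurs in 1.79% of all promoter windows, and 3.34% of 10945 tested genes held it in at least 1 of their windows. The Gli-type motif GACCACCCA, held by 0.253% of all windows and by 0.265% of these genes, is not among these letters.
Hhip: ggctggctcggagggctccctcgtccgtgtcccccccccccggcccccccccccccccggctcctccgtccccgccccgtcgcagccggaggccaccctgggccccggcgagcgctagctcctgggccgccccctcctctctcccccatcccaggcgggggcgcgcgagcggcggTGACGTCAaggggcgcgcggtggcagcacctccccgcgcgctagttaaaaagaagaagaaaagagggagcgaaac

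Of 23 Wnt pathway genes tested, 1 was called higher and 1 lower, beside 1.1% and 0.242% of all genes. Wnt5a, a ligand that signals without beta-catenin, measured 70.5 and 75.7 against 224 and 206 CPM in whole tissue and 44.1 and 48.4 against 238 and 250.7 CPM in sorted cells. Its hindbrain excess was larger in sorted cells, by 0.84 ± 0.16 (adjusted p = 0.0196). Rspo2, a secreted amplifier of Wnt signals, was a telencephalic gene in both preparations, with 23.6 and 26.8 against 1.77 and 2.08 CPM in whole tissue and 38.6 and 45.0 against 1.05 and 1.17 CPM in sorted cells. Its telencephalic excess was larger in sorted cells (interaction -1.51 ± 0.29, adjusted p = 0.022). Both calls were fragile. That of Wnt5a was lost without telencephalic whole library 1 or 2, hindbrain whole library 2 or telencephalic sorted library 1 or 2, at adjusted p of 0.0536 to 0.147. That of Rspo2 was lost without any 1 library except hindbrain sorted library 2, at 0.051 to 0.129, and in limma-voom (0.209).

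Among 25 BMP pathway genes, 1 was called, beside 1.34% of all genes. Gdf10, a divergent member of the TGF-beta family, was called at 2.20 ± 0.45 (adjusted p = 0.0345), with 1.17 and 0.434 CPM in telencephalic and 11.3 and 8.73 CPM in hindbrain sorted cells. It was lost without telencephalic whole library 1 or 2, hindbrain whole library 1 or 2 or telencephalic sorted library 2, at 0.0787 to 0.193. With the brain block, 2 members of the BMP list were called. Gdf7, the roof plate BMP ligand, had under 10 counts in a telencephalic group and measured 61.5 and 103 CPM in hindbrain whole tissue and 75.6 and 74.4 CPM in hindbrain sorted cells (adjusted p = 0.827). Of 15 retinoic acid pathway genes, Rarb, a receptor that the pathway itself induces, was called, beside 1.34% of all genes. It measured 14.3 and 15.5 against 10.6 and 10.3 CPM in whole tissue and 7.03 and 7.88 against 21.0 and 18.2 CPM in sorted cells. The hindbrain excess of Rarb in sorted cells passed the regional test (adjusted p = 0.000162) and its lower level in hindbrain whole tissue did not (0.136), with an interaction of 1.91 ± 0.25 (adjusted p = 0.00241), kept in all alternative fits. Dlk1, a non-canonical Notch ligand singled out after its values were seen, had a hindbrain excess in both preparations, at 5.38 and 4.72 against 33.7 and 27.6 CPM in whole tissue and 2.34 and 2.98 against 70.8 and 85.8 CPM in sorted cells (2.31 ± 0.28, adjusted p = 0.00194, kept in all alternative fits). The mural, macrophage and mesenchymal sums moved in the same direction as Hhip, Wnt5a, Gdf10, Rarb and Dlk1 between the sorted groups, and their part in these results was not tested.

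In the lower direction, several genes were more abundant in telencephalic sorted cells than anywhere else. Ly6a, a surface antigen of progenitor and activated cells, measured 7.46 and 7.13 CPM in telencephalic whole tissue and 11.4 and 11.1 CPM in hindbrain whole tissue. In sorted cells it measured 39.3 and 57.3 against 11.97 and 11.01 CPM. The telencephalic sorted libraries alone were high, and the interaction was -2.69 ± 0.28 (adjusted p = 0.00101). Maob, a mitochondrial enzyme that breaks down monoamines, showed the same shape, with 1.71 and 1.78 against 3.27 and 2.79 CPM in whole tissue and 11.9 and 14.7 against 3.09 and 2.97 CPM in sorted cells (-2.93 ± 0.38, adjusted p = 0.00241). Slc7a11, the cystine and glutamate exchanger, measured 168 and 196 against 125 and 99.1 CPM in whole tissue and 309 and 297 against 83.8 and 65.8 CPM in sorted cells. It was called at -1.32 ± 0.21 (adjusted p = 0.00743) and lost without telencephalic whole library 1 (adjusted p = 0.0665).

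Slit3, a repulsive guidance ligand, measured 210 and 205 against 100.5 and 110 CPM in whole tissue and 281 and 285 against 69.2 and 72.7 CPM in sorted cells. Its telencephalic excess was larger in sorted cells (-1.01 ± 0.15, adjusted p = 0.0053), and the call was lost without telencephalic whole library 2 (0.0571). Slc7a11 and Slit3 were chosen after their values were seen. Ppp2r2c, a regulatory subunit of a protein phosphatase, was also telencephalic in both preparations (-2.82 ± 0.58, adjusted p = 0.0333). This call was lost without telencephalic whole library 1 or 2, hindbrain whole library 1 or telencephalic sorted library 1 or 2, at 0.0907 to 0.201, and without hindbrain whole library 1 its value was -1.78.

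Other lower genes had a hindbrain excess in whole tissue that was smaller or absent in sorted cells. The regional differences of Wdr72 and Bnc2 in sorted cells were -0.25 and -0.64, and neither was called. Wdr72, a protein of vesicle transport, measured 7.83 and 7.02 against 24.9 and 23.9 CPM in whole tissue, and 42.7 and 45.5 against 42.0 and 32.3 CPM in sorted cells. It rose on sorting in both regions and reached a similar level, with an interaction of -1.95 ± 0.23 (adjusted p = 0.00179). Ly6a, Maob and Wdr72 were kept in all alternative fits. Bnc2, a zinc finger protein of mesenchyme, was called at -2.54 ± 0.44 (adjusted p = 0.0116) and lost without telencephalic whole library 1 or 2 (adjusted p = 0.0845 and 0.0959) or telencephalic sorted library 2 (0.0525). Ranbp3l, a nuclear export factor, kept a called hindbrain excess in sorted cells (2.87 in whole tissue and 0.99 in sorted cells, the latter with an adjusted p of 0.0357). It was called at -1.87 ± 0.41 (adjusted p = 0.0439), and its call was lost without any 1 library except hindbrain sorted library 2, at 0.0523 to 0.264.

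Neutrophil genes made up the list with the largest share of lower calls: 5 of 12 tested members, beside 0.242% of all genes. S100a9, a subunit of the calprotectin dimer of granulocytes, measured 0.734 and 0.419 CPM in telencephalic whole tissue, 18.47 and 12.46 CPM in hindbrain whole tissue, 4.69 and 1.55 CPM in telencephalic sorted cells and 4.15 and 1.83 CPM in hindbrain sorted cells. The hindbrain whole libraries alone were high. The interaction was -4.76 ± 0.77 (adjusted p = 0.00855) for S100a9, -4.54 ± 0.75 (adjusted p = 0.00925) for its partner S100a8, -4.91 ± 0.77 (adjusted p = 0.0074) for the granule protein Ngp and -4.18 ± 0.68 (adjusted p = 0.00882) for the siderophore-binding Lcn2. Mpo, the granule peroxidase, had 186 counts in hindbrain whole tissue against 3 in the telencephalic one, and 26 and 34 in the telencephalic and hindbrain sorted groups (adjusted p = 0.0197). Without telencephalic whole library 1 the adjusted p was 0.0659 for S100a9, 0.0825 for S100a8, 0.0665 for Ngp, 0.1 for Lcn2 and 0.154 for Mpo. Without telencephalic whole library 2 it was 0.0774, 0.0836 and 0.0714 for S100a9, S100a8 and Ngp and 0.128 for Mpo. Without telencephalic sorted library 1 it was 0.0571, 0.0508, 0.066 and 0.188 for S100a9, S100a8, Lcn2 and Mpo, and without hindbrain whole library 1 it was 0.131 for Mpo. Stfa2l1, a stefin of granulocytes, was called at -3.24 ± 0.61 (adjusted p = 0.0199) and lost without any of the 4 whole-tissue libraries or telencephalic sorted library 1, at 0.057 to 0.173. The 14 neutrophil markers summed to 4.46 and 5.87 CPM in telencephalic whole tissue, 81.9 and 60.9 in hindbrain whole tissue and 7.19 to 19.9 CPM in the 4 sorted libraries, and DESeq2 called 6 members of the list where limma-voom called 0. The erythroid markers summed to 28.4 and 35.5 CPM in telencephalic and 69.2 and 63.1 CPM in hindbrain whole tissue. Hba-a1, Hba-a2, Hbb-b1 and Hbb-b2 were at 0 in all libraries, which does not mean that globin was absent. Beta-s, a beta-globin symbol outside the list and its sum, measured 207 and 273 CPM in telencephalic whole tissue. It was higher in both hindbrain whole libraries, at up to 485 CPM, and measured 3.93 to 29.9 CPM in the 4 sorted libraries. The part of blood in the neutrophil values was not tested.

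Neuronal genes gave 1 call lower among 17 tested, beside 0.242% of all genes. Nefl, a neurofilament subunit, measured 1.41 and 1.89 CPM in telencephalic and 3.83 and 7.55 CPM in hindbrain whole tissue, and 1.06 and 0.868 against 0.0364 and 0.294 CPM in sorted cells, with under 10 counts in hindbrain sorted cells (adjusted p = 0.0282). The call was lost without telencephalic whole library 1 or 2, hindbrain whole library 2 or telencephalic sorted library 1 or 2, at 0.0624 to 0.171, and with the brain block 3 members were called. Gria1, an AMPA receptor subunit, had a like shape, with 1.41 and 0.734 against 11.29 and 11 CPM in whole tissue, and 0.151 and 0.806 against 0 and 0.147 CPM in sorted cells (adjusted p = 0.0238). The Gria1 call was lost without any of the 4 whole-tissue libraries or telencephalic sorted library 2, at 0.0537 to 0.269. The 18 neuronal markers summed to 185 and 191 CPM in telencephalic whole tissue, 190 and 177 in hindbrain whole tissue, 151 and 179 in telencephalic sorted cells and 86.2 and 79.1 in hindbrain sorted cells. Hindbrain sorted cells thus kept 45.1% of the whole-tissue sum and telencephalic ones 87.6%, the reverse of the order seen for mural and macrophage markers. Abundant members weigh most in this sum, and the median member fell further. The median sorted minus whole difference of the 17 tested was -1.96 in the telencephalon (8 called lower and 0 higher). It was -3.23 in the hindbrain (12 lower and 0 higher). Gap43 was at 0 in telencephalic sorted cells.

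**Figure D4:**
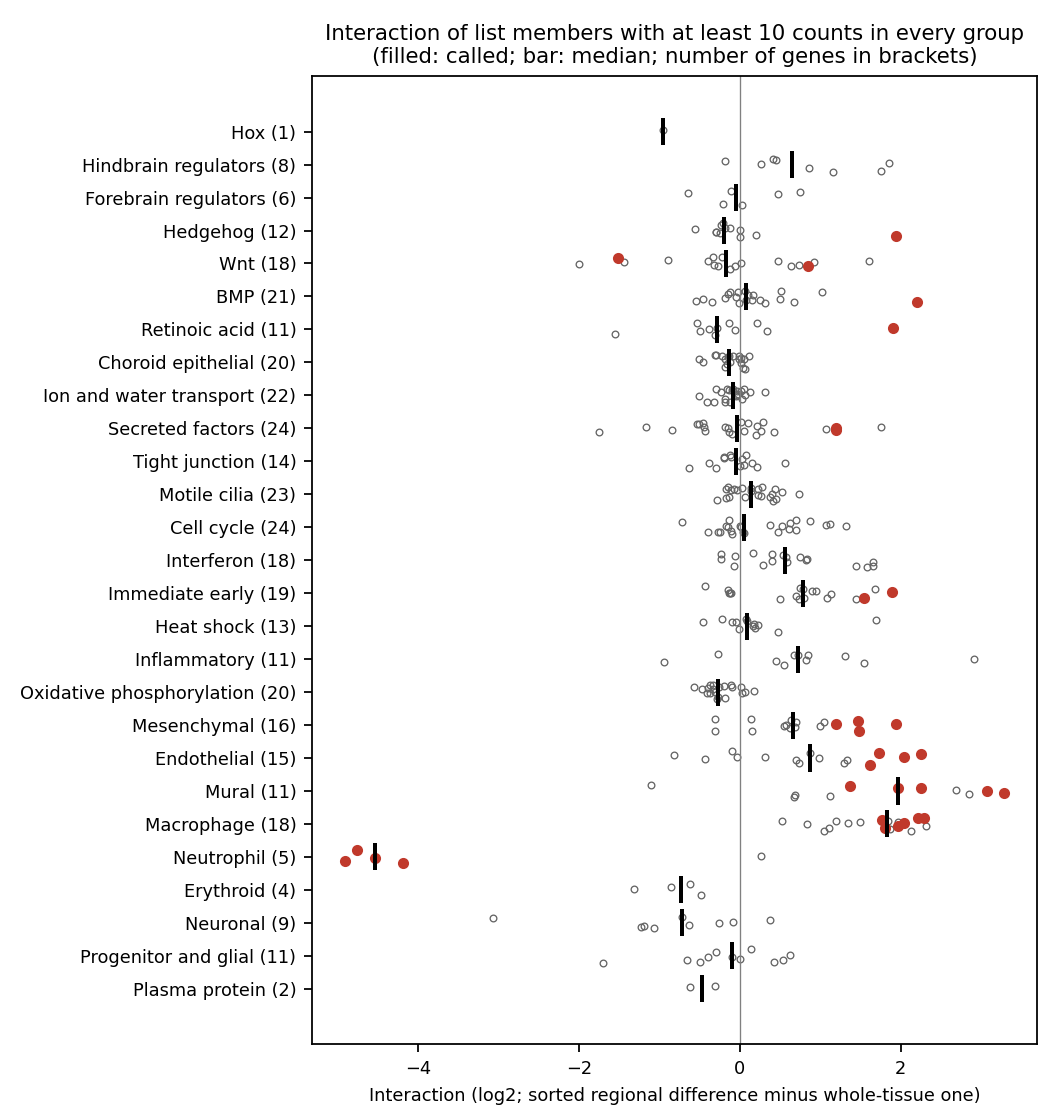
Interaction (log2) of the members of 27 gene lists that had at least 10 counts in every group, with filled points for called genes, open points for the others and a bar at the median of each list. Called genes gather on the right for mural, macrophage, endothelial and mesenchymal lists and on the left for the neutrophil list, while the choroid epithelial, transport and tight junction lists lie close to 0 with no called member.

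The epithelial genes themselves gave no call in the interaction. None of 20 choroid epithelial markers was called, in a range of -0.51 to 0.11, and 2 had an unadjusted p under 0.05, beside 9.43% of all tested genes. Ttr, the carrier of thyroid hormone and retinol, measured 187000 and 172100 CPM in telencephalic and 139400 and 140900 CPM in hindbrain whole tissue, and 281800 and 257000 against 159000 and 210700 CPM in sorted cells. The hindbrain sorted libraries lay on either side of the telencephalic whole-tissue ones, and the interaction of -0.19 ± 0.18 had a 95% interval of -0.57 to 0.20 (adjusted p = 0.845). The 19 other markers together measured 10840 to 13430 CPM in whole tissue and 13920 to 15820 CPM in sorted cells. Enpp2, the lysophospholipase autotaxin, measured 1660 and 1699 against 3490 and 3975 CPM in whole tissue and 2766 and 3438 against 5171 and 4890 CPM in sorted cells. Its hindbrain excess was seen in both preparations, with an interaction of -0.45 ± 0.17 (adjusted p = 0.396).

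None of 22 ion and water transport genes, 16 tight junction genes or 23 motile cilia genes was called by edgeR or limma-voom, and DESeq2 and the brain block each called 1 motile cilia gene. An unadjusted p under 0.05 was seen for 0, 2 and 4 members of these lists, beside 9.43% of all tested genes. Slc4a10, a sodium-dependent bicarbonate transporter that supports fluid secretion, measured 353 and 348 against 1166 and 1232 CPM in whole tissue and 430 and 457 against 1456 and 1327 CPM in sorted cells. The more than 3-fold hindbrain excess was present in both (log2 fold change 1.77 and 1.65), and the interaction was -0.12 ± 0.15 with a 95% interval of -0.44 to 0.20. Slc4a5, another bicarbonate transporter, had regional differences of 0.77 and 0.84 and an interaction of 0.07 ± 0.20. Among 25 secreted factors, 2 were called, beside 1.34% of all genes. Sod3, the extracellular superoxide dismutase, was called besides Trf. It measured 19.1 and 20.0 against 61.6 and 56.4 CPM in whole tissue and 6.201 and 6.95 against 47.1 and 43.2 CPM in sorted cells (1.19 ± 0.20, adjusted p = 0.0097). It was lost without telencephalic whole library 1 or 2 (adjusted p = 0.0632 and 0.0774), hindbrain whole library 2 (0.0501) or telencephalic sorted library 1 (0.0772).

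Regulators of regional identity gave no call either: none of 7 Hox genes, 14 hindbrain regulators or 13 forebrain regulators tested, although 1 hindbrain regulator was called with the brain block. The median interactions of these lists were -0.73, 0.65 and 0.02, and 10 of the 14 hindbrain regulators lay above 0. The Hox median was 0.52 in limma-voom and -0.02 without telencephalic sorted library 2. The hindbrain regulator median was 0.27 without telencephalic whole library 1. An unadjusted p under 0.05 was seen for 0, 3 and 1 of them, beside 9.43% of all tested genes, and DESeq2 and limma-voom also called none. Many of them had a group under 10 counts, since they were close to absent in the other region. Six3, a forebrain transcription factor, measured 58.0 and 56.3 against 0.685 and 0.991 CPM in whole tissue and 71.4 and 49.7 against 1.09 and 1.36 CPM in sorted cells. Its regional difference of about 6 log2 units in both (-6.10 and -5.63) left an interaction of 0.47 ± 0.37, with a 95% interval of -0.34 to 1.29. Otx1, another forebrain regulator, had regional differences of -3.28 and -3.49 (interaction -0.21 ± 0.35). Meis1, a partner of Hox proteins, had differences of 5.96 and 6.40 (0.44 ± 0.75). Hoxa2, the most anterior Hox gene of the hindbrain, measured 7.499 and 6.89 CPM in hindbrain whole tissue and 7.02 and 9.76 CPM in hindbrain sorted cells, and at most 0.124 CPM in any telencephalic library (adjusted p = 1). Penk, the enkephalin precursor, measured 8.32 and 5.45 against 649 and 715 CPM in whole tissue and 7.87 and 12.7 against 557 and 306 CPM in sorted cells, where the hindbrain libraries differed. Its interaction of -1.16 ± 0.41 did not pass (adjusted p = 0.328), but it was called with no filter on low counts (adjusted p = 0.00796) and without hindbrain sorted library 1 (-1.64, adjusted p = 0.0164).

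Genes that respond within minutes to handling were examined because sorting adds dissociation. Of 24 immediate early genes tested, 2 were called higher, beside 1.1% of all genes. An unadjusted p under 0.05 was seen for 12 of them, where 9.43% of all tested genes had one, and the median interaction was 0.79. Klf6, a zinc finger transcription factor, measured 38.1 and 39.6 against 41.9 and 48.7 CPM in whole tissue and 27.0 and 32.8 against 112 and 145 CPM in sorted cells. Only the hindbrain sorted libraries were high, and the interaction was 1.89 ± 0.22 (adjusted p = 0.00179), kept in all alternative fits. Zfp36, which destabilizes inflammatory messages, measured 22.6 and 16.0 against 24.5 and 20.5 CPM in whole tissue and 53.3 and 71.5 against 186 and 231 CPM in sorted cells. It was called at 1.54 ± 0.27 (adjusted p = 0.0116) and lost without telencephalic whole library 1 (0.133) or telencephalic sorted library 1 (0.0718).

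Fos and Egr1, also higher in sorted cells than in whole tissue, were not called, which does not show that their regional differences were equal. Fos, a subunit of the AP-1 transcription factor, measured 0.839 to 1.69 CPM in the 4 whole-tissue libraries and 166 and 201 against 272 and 237 CPM in sorted cells, with an interaction of -0.14 ± 0.43 (adjusted p = 0.971) that turned positive without hindbrain whole library 1 (0.47) or telencephalic sorted library 2 (0.01). Egr1, another immediate early transcription factor, measured 14.98 and 10.8 against 12.6 and 11.8 CPM in whole tissue and 336 and 299 against 480 and 626 CPM in sorted cells (0.90 ± 0.24, adjusted p = 0.116). Egr1 passed the threshold with library totals as scaling (1.01, adjusted p = 0.0424), with no filter on low counts (adjusted p = 0.0074), with DESeq2 (adjusted p = 0.0088) and without hindbrain sorted library 1 (1.09, adjusted p = 0.0226). The list summed to 216 to 261 CPM in whole tissue, 1133 and 1201 CPM in telencephalic sorted cells and 2003 and 2246 CPM in hindbrain sorted cells. The part of dissociation in the other results was not tested.

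None of 14 heat shock genes, 20 inflammatory genes, 19 interferon response genes, 24 cell cycle genes or 20 nuclear-encoded oxidative phosphorylation genes was called, and the brain block called 1 heat shock and 1 inflammatory gene and DESeq2 1 interferon response gene. An unadjusted p under 0.05 was seen for 3, 5, 1, 6 and 1 members of these lists, beside 9.43% of all tested genes. Their median interactions were 0.13, 0.50, 0.58, 0.05 and -0.27, against 0.0038 over all genes, and they depended on single libraries. The inflammatory median was -0.29 without telencephalic whole library 1, -0.06 and 1.502 without telencephalic sorted library 1 or 2 and -0.18 without hindbrain sorted library 2. The interferon median was 0.14 and 1.58 without telencephalic sorted library 1 or 2 and 1.13 and 0.20 without hindbrain sorted library 1 or 2. The cell cycle median moved with each library left out, within -0.03 to 0.34. That of heat shock genes was 0.066 without hindbrain sorted library 2, and that of oxidative phosphorylation genes -0.15 and -0.17 without telencephalic or hindbrain sorted library 1. Mki67, a marker of cycling cells, measured 70.8 and 89.0 against 126 and 124 CPM in whole tissue and 11.5 and 18.54 against 33.7 and 41.9 CPM in sorted cells, a fall on sorting in both regions (interaction 0.70 ± 0.27, adjusted p = 0.415). None of 14 plasma protein genes was called, while 3 were with the brain block, among them Alb, the blood carrier albumin (adjusted p = 0.197, and 0.000393 with the block). Alb measured 0.122 and 0.105 CPM in telencephalic whole tissue, 0.363 and 20.2 CPM in hindbrain whole tissue and 20.4 to 38.5 CPM in the 4 sorted libraries. Hindbrain whole library 2 thus stood apart from library 1, and without library 1 the adjusted p was 9.80e-05 (3.31e-05 with no filter on low counts). None of 8 erythroid or 15 progenitor and glial genes was called, with 1 of the latter called in the block and by DESeq2. An unadjusted p under 0.05 was seen for 7 plasma protein, 2 erythroid and 2 progenitor and glial genes, beside 9.43% of all tested genes. Hba-x, an embryonic globin, measured 0.122 to 1.70 CPM in the whole-tissue and telencephalic sorted libraries and 35.2 and 21.1 CPM in hindbrain sorted cells (adjusted p = 0.514).

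Other abundant list members were not called, which at this number of libraries does not show that their regional differences were equal. The ATP synthase subunits Atp5a1 and Atp5b had values of 0.02 ± 0.17 and 0.17 ± 0.23, the chaperones Hspa8 and Hsp90ab1 values of 0.09 ± 0.15 and 0.18 ± 0.18, and the axonemal dynein Dnahc6 and the cilia regulator Rfx3 values of -0.04 ± 0.17 and 0.07 ± 0.15. The junction proteins Cldn1 and Cldn2 stood at 0.15 ± 0.15 and -0.11 ± 0.17, and the carbonic anhydrase Car12 at 0.02 ± 0.18. In the signalling lists, the Hedgehog co-receptor Cdon and the transducer Smo stood at -0.23 ± 0.18 and -0.29 ± 0.20, the Wnt effector Lef1 at -0.11 ± 0.21, the BMP receptor Bmpr2 and the secreted antagonist Sostdc1 at 0.31 ± 0.21 and -0.15 ± 0.16, and the retinol transporter Stra6 at -0.28 ± 0.17. The Hox cofactor Pbx3 had an interaction of 0.26 ± 0.23. Vcam1, an adhesion molecule, and Csf1, a macrophage growth factor, had values of 0.45 ± 0.19 and -0.27 ± 0.20. The interferon-response gene Rsad2 stood at 0.54 ± 0.94, the replication clamp Pcna at 0.00 ± 0.19 and the receptor Notch1 at 0.54 ± 0.25, and Notch1 was called without hindbrain sorted library 1 (0.84, adjusted p = 0.0313). The synaptic vesicle gene Syt1 had a value of -0.26 ± 0.23, the haem synthesis enzyme Alas2 one of -0.61 ± 0.29 and the lipoprotein Apob one of -0.62 ± 0.50. Hoxb3 had no counts in any telencephalic library and 2.97 to 5.89 CPM in the hindbrain ones, so no interaction could be read from it. Rn45s stood at -0.54 ± 0.31 (adjusted p = 0.663) and was called without hindbrain sorted library 2 (-1.09, adjusted p = 0.0045).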

How the data were processed

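RNA was pre-amplified (NuGEN Ovation V2) and sequenced as paired-end TruSeq v2 libraries, per the labels' protocols. The tools named in the submitters' processing notes are Bowtie2 2.0.5 and TopHat2 2.0.4, HTSeq, CASAVA 1.8.2 and DESeq 1, with the mouse build mm9. Annotation and strand setting were not given in the sources used here. Raw counts of reads for 23284 gene symbols were deposited by the authors. Coordinates of mm9 were not used, and antisense overlaps could not be resolved.

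R 4.3.3 and edgeR 4.0.16 were used for the fit (filterByExpr with minimum count 10 and minimum total 15, TMM scaling, 4 group means, 8 libraries, quasi-likelihood F tests, Benjamini-Hochberg adjustment over 15698 genes, threshold 0.05). Values are log2 fold changes ± SE of the fit. CPM was computed from the counts and TMM-scaled totals. Genes with under 10 counts in a group are given without a fold. DESeq2 1.42.0 and limma-voom 3.58.1 were alternatives. On simulated counts with 100 genes changed by an interaction of 1 (log2) and 100 by 2, the interaction test recovered 43% and 90%, with 5 false calls among 15535 genes tested, so an uncalled interaction near 1 is often beyond this depth and number of libraries. The changed genes were drawn from those without a low level in any group, and each gene had the same spread in all groups. The simulation therefore does not cover genes near the floor or the wider spread of the hindbrain sorted pair.

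Libraries 1 and 2 of each preparation were paired by brain, as the design text states; deviations from group means correlated at 0.193 in whole tissue and 0.145 in sorted cells. The block left 2 residual degrees of freedom against 4. A library left out leaves a group of 1, which is then assumed to vary like the others.

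The members, gene lists and tests were chosen with earlier results of these data known. The 27 lists hold 496 symbols, 491 of them in the table. Named genes are the 12 per direction with the largest called interaction (mean of at least 10 CPM in a group, at least 10 counts in every group, no overlap between brains, provisional symbols omitted), up to 6 called with a lower group, up to 6 per crossing pattern, up to 3 called members per list or else the 2 most abundant, and 15 preset genes. Some genes that this rule names are not reported here. The remaining genes (Dlk1, Slc7a11, Slit3, Lama2, Lama4, Nid1, Gata2, Lyve1, Plvap, Mrc1, Cspg4, Robo4, F13a1, Fcer1g, Mgp, Gdf10, Rarb, Nefl, Mpo, Fos, Egr1, Pecam1, Csf1r) were chosen after their values were seen.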

Additional observations from a re-analysis of the deposited data

Results flagged for a closer look

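The results below are the named genes whose regional difference itself differed between sorted cells and whole tissue in edgeR's quasi-likelihood test at an adjusted p under 0.05. In each of them, the brain-level differences of the preparations did not overlap (2 brains against 2), which also held for 41.7% of all genes tested. For the genes named by the size of their interaction it was also a condition of naming. It is computed from the same counts as the test, so it adds no support to any of these calls.

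Among vascular and stromal genes the interaction (log2) was 3.283 for Rgs5, 3.072 for Kcnj8, 2.25 for Abcc9, 1.967 for Pdgfrb, 1.376 for Cspg4, 2.259 for Robo4, 2.047 for Emcn, 1.733 for Eng, 1.613 for Cdh5, 1.941 for Col6a1, 1.485 for Col6a2, 1.474 for Col3a1 and 1.19 for Mgp. It was 2.285 for C1qc, 2.214 for F13a1, 2.047 for Lyve1, 1.966 for C1qb, 1.807 for Laptm5 and 1.773 for Fcer1g among macrophage genes. Among the basement membrane genes and a haematopoietic and endothelial transcription factor chosen after their values were seen, it was 2.199 for Lama2, 1.987 for Nid1, 1.765 for Lama4 and 3.583 for Gata2.

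Other higher values were 3.352 for Fmo2, 2.858 for Sparcl1, 2.672 for Tmem100, 2.551 for Igfbp3, 2.548 for Filip1, 2.541 for Slco2b1, 2.481 for Lgals9, 2.455 for Hmcn1, 2.423 for C7, 2.252 for Svep1, 2.07 for Rgs4, 1.906 for Ccdc80, 1.424 for Errfi1, 1.201 for Trf and 1.193 for Sod3. Signalling and immediate early genes stood at 2.311 for Dlk1, 2.199 for Gdf10, 1.936 for Hhip, 1.908 for Rarb, 1.889 for Klf6, 1.54 for Zfp36 and 0.845 for Wnt5a.

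Lower values were -4.91 for Ngp, -4.764 for S100a9, -4.536 for S100a8, -4.182 for Lcn2, -3.237 for Stfa2l1, -3.22 for Reln, -2.925 for Maob, -2.819 for Ppp2r2c, -2.689 for Ly6a, -2.536 for Bnc2, -1.954 for Wdr72, -1.871 for Ranbp3l, -1.667 for Slc6a13, -1.513 for Rspo2, -1.325 for Slc7a11 and -1.013 for Slit3. Gria1, Mpo and Nefl, each with a group under 10 counts, are given by their adjusted p of 0.02376, 0.01965 and 0.02821.

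Of these, Tmem100, Filip1 and C7 are not described elsewhere. Tmem100, a membrane protein of vessels, measured 0.567 and 0.248 CPM in telencephalic and 9.42 and 7.23 CPM in hindbrain sorted cells (adjusted p = 0.0225). Its call was lost without telencephalic whole library 1 (0.192), either hindbrain whole library (0.0589 and 0.0844) or either telencephalic sorted library (0.051 and 0.0967). Filip1, an actin-binding protein, measured 0.681 and 0.186 against 3.46 and 2.20 CPM in sorted cells (adjusted p = 0.0425). It was lost without any of the 4 whole-tissue libraries, telencephalic sorted library 2 or hindbrain sorted library 1, at 0.0717 to 0.204. C7, a component of the terminal complement complex, measured 1.78 and 1.05 against 9.60 and 11.9 CPM in sorted cells (adjusted p = 0.011). It was lost without telencephalic whole library 1 (0.108) or 2 (0.0534) or hindbrain whole library 1 (0.0534).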

How the results depend on the processing

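None of the 211 calls changed sign in any alternative fit. The count of 211 was 211 with size factors of the DESeq2 type, 215 with upper quartile scaling, 254 with library totals (which moved the median of all genes from 0.0038 to 0.12), 210 with a stricter filter and 215 without Rn45s. It moved by more than 1.5 times in 5 other fits. Without a filter on low counts it was 441 (336 higher, 105 lower). With DESeq2 it was 335 (266 and 69), with limma-voom 111 (98 and 13), with a test against a 1.5-fold change 92 (72 and 20), and with the replicate block 337 (277 and 60). All 111 calls of limma-voom and 206 of the 335 of DESeq2 were among the 211. Beside those given with their genes, the block lost no call of a named gene. Calls lost in limma-voom were also those of Robo4, Tmem100, Filip1, Gdf10, Fcer1g, Igfbp3, Col6a2, Mgp, Ppp2r2c, Ranbp3l, Nefl and Gria1. Their adjusted p lay between 0.0562 (Col6a2) and 0.187 (Robo4). Those of Ngp, Lcn2, S100a8, S100a9, Mpo and Stfa2l1 were lost there as well (0.05475 to 0.113). DESeq2 lost F13a1 (adjusted p = 0.12) and Ppp2r2c (0.0618), and edgeR with library totals lost Ranbp3l (0.0501). Leaving out 1 library gave 58 to 473 calls, 51 to 340 higher and 7 to 133 lower. It gave 316 to 1341 calls between regions in whole tissue, 1051 to 3253 in sorted cells, 1519 to 4501 between preparations in the telencephalon (3517 in the fit with all libraries) and 1691 to 3873 in the hindbrain (3472). Against a 1.5-fold change these comparisons gave 280, 788, 1034 and 954. The cause of these moves was not tested, except that a stated fold asks for more.

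Of 64 called named genes, 29 kept their call in every fit. Over all fits, 966 of 1150 values stayed called and 184 did not, 139 of them with a library left out. Of 881 values of 49 uncalled genes, 25 passed the threshold and 43 changed sign. With library totals the values turned to 0.01446 for Cldn2, 0.08402 for Dnahc6, 0.02327 for Lef1, 0.1289 for Pcna and 0.001414 for Slc4a10. Pcna, at -0.001811 in the reported fit, also turned with size factors of the DESeq2 type (0.0007739), upper quartile scaling (0.008622), DESeq2 (0.0008845), limma-voom (0.0004692), the replicate block (0.01111) and without Rn45s (0.007975). With 1 library left out, uncalled genes ranged from -0.1035 to 0.155 (Atp5a1), -0.06612 to 0.4519 (Atp5b), -0.1454 to 0.2045 (Car12), -0.2309 to 0.004361 (Cldn2), -0.1561 to 0.07414 (Dnahc6), -0.5201 to 0.4713 (Fos), -0.01602 to 0.1932 (Hspa8), -0.3061 to 0.0988 (Lef1), -0.3677 to 1.432 (Meis1), -0.6888 to 0.1514 (Otx1), -0.1551 to 0.1735 (Pcna), -1.241 to 1.579 (Rsad2), -0.09489 to 0.2499 (Slc4a5) and -0.4033 to 0.006309 (Ttr). Of 972 list values, 149 moved by more than the limits set. Genes with under 10 counts in a group were near the limit of this depth, where 3 counts equal 0.109 to 0.315 CPM.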

Other observations

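Single basement membrane genes, chosen after their values were seen, were among the higher calls, and others were not: the laminin chain Lamc1, the collagen Col4a2 and the proteoglycan Hspg2 were not called, at 0.00, -0.02 and 0.03. Lama1, a called laminin chain (2.11 ± 0.33, adjusted p = 0.00743), measured 24.3 and 28.9 against 9.31 and 7.60 CPM in whole tissue, a called telencephalic excess (adjusted p = 0.000967), and 8.55 and 5.71 against 11.5 and 8.40 CPM in sorted cells (adjusted p = 0.223). Lama2, a laminin chain of stroma and muscle, measured 50.9 and 64.6 against 72.9 and 76.8 CPM in whole tissue and 19.6 and 16.1 against 133 and 82.3 CPM in sorted cells (interaction 2.20 ± 0.29, adjusted p = 0.00241). Lama4, the vascular laminin chain, measured 59.9 and 62.2 against 60.7 and 62.8 CPM in whole tissue, where the regions overlapped, and 5.26 and 6.39 against 22.7 and 17.03 CPM in sorted cells (1.76 ± 0.23, adjusted p = 0.00241). Nid1, the linker of laminin and collagen IV networks, measured 343 and 366 against 288 and 316 CPM in whole tissue and 56.7 and 46.3 against 204 and 145 CPM in sorted cells (1.99 ± 0.22, adjusted p = 0.00179). Gata2, a transcription factor of blood and vessel cells, measured 5.14 and 3.67 against 7.90 and 7.18 CPM in whole tissue and 0.265 and 0.372 against 5.78 and 6.93 CPM in sorted cells (adjusted p = 0.00241). The calls of Lama2, Lama4, Nid1 and Gata2 were kept in every alternative fit. Plvap, the diaphragm protein of fenestrated capillaries, measured 24.2 to 30.0 CPM in hindbrain and 23.7 to 28.0 CPM in telencephalic whole tissue, and 0.682 to 1.56 CPM in all 4 sorted libraries, with an interaction of 0.73 ± 0.34 (adjusted p = 0.544).

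The hindbrain sorted libraries differed from each other in genes that carry a regional difference. Ptn, a heparin-binding growth factor, measured 81.9 and 44.7 CPM, and Cdh11, a mesenchymal cadherin, 271 and 152 CPM, in libraries 1 and 2. Lbp, a lipopolysaccharide-binding protein, measured 603 and 1195 CPM in the hindbrain and 673 and 1598 CPM in the telencephalic sorted libraries 1 and 2, so that for Lbp the libraries of 1 brain lay together. Slco1c1, a thyroid hormone transporter, showed the same order, with 36.4 and 77.5 CPM in the hindbrain and 31.8 and 61.7 CPM in the telencephalon.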
